A study of Mus musculus with 4 samples.

Results

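Genes of the cell cycle and of DNA replication were examined in PRO-seq (precision nuclear run-on sequencing) of WT and Hdac3 KO mouse liver. The set was given as 55 gene symbols, covering cyclins, cyclin-dependent kinases, E2F factors, origin licensing factors, DNA synthesis enzymes and the mitotic machinery. The deposited table lists 54 of them among 20642 gene symbols, and Anln was not found under that symbol. A symbol with several transcripts was represented by the transcript with most promoter-proximal reads on average. All 54 listed members were active, as were 12705 genes in all, where active means any reads near the promoter and more than 4 normalized reads per kb of gene body on average.

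In PRO-seq, polymerases already on a gene extend their RNA by a labelled nucleotide in nuclei taken from the tissue, so the assay reads transcription and not the amount of mRNA or protein. The livers came from C57BL/6 mice on postnatal day 14. WT mice carried intact Hdac3 (+/+) together with the Alb-Cre transgene, and KO mice carried the same transgene with Hdac3 fl/fl or fl/- alleles. Alb-Cre is driven by the albumin promoter, which is active in hepatocytes, so the other cells of the liver should keep a floxed (fl) allele. The paper describes the - allele as a null allele. In fl/- mice the other cells therefore also lack a copy that WT cells have. Each genotype gave 2 libraries (WT1, WT2, KO1 and KO2), each from the pooled livers of several mice, and the spread between libraries is therefore a spread between pools. With 2 libraries against 2, an exact two-sided permutation test cannot give a p under 0.33, so the values of single libraries are shown for each member that was called.

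A cell that divides passes from G1 through DNA synthesis (S phase) and G2 into mitosis. D-type cyclins with CDK4 and CDK6, and later E-type cyclins with CDK2, phosphorylate RB, which frees E2F factors to drive genes of DNA replication. The DREAM complex, NF-Y and FOXM1 control the genes of G2 and mitosis. Many of these genes carry CCAAT boxes and a cell cycle genes homology region (CHR, TTTGAA) near the start site. The liver of a young mouse is still growing, and its hepatocytes, endothelial cells and remaining blood-forming cells can all divide. In nascent RNA from whole liver, fewer cells of a type and less RNA per cell cannot be told apart.

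The reads counted on genes ranged from 16628518 to 26190040 per library, and promoter-proximal windows held 9.38% to 10.3% of them in WT and 13.6% to 17% in KO. Hdac3 itself had 665 and 648 normalized gene body reads in WT against 609 and 582 in KO, a log2 fold change of -0.14 (limma adjusted p = 0.413), so these reads do not check the genotype labels. The albumin gene and the other hepatocyte markers were strongly transcribed in all libraries, with summed gene body densities of 22980 and 25080 normalized reads per kb in WT and 10760 and 10610 in KO over 7 active markers.

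The promoters of 4 members are shown because these members were called in at least one measure below and hold both a CCAAT box and a CHR within 250 bases before the start site. Sequences are from RefSeq (GRCm38.p6), each covering the 150 bases just before the start, written 5′ to 3′ on the strand of the gene. Capitals mark the CCAAT box (its reverse complement reads ATTGG). They also mark the CHR, whose letters are TTTGAA (its reverse complement reads TTCAAA), and the E2F motif TTTNNCGC, in which each N stands for cytosine or guanine. The places are chr4:118437344-118437493 (minus strand) for Cdc20, chr2:164769779-164769928 (plus strand) for Ube2c, chr10:69352913-69353062 (minus strand) for Cdk1 and chr6:88898781-88898930 (minus strand) for Mcm2.
Cdc20: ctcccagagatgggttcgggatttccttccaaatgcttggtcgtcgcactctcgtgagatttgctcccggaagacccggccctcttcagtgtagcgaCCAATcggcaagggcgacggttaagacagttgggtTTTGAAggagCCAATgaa
Ube2c: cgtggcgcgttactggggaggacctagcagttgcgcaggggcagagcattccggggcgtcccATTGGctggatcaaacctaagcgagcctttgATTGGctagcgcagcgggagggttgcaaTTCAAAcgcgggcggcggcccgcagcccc
Cdk1: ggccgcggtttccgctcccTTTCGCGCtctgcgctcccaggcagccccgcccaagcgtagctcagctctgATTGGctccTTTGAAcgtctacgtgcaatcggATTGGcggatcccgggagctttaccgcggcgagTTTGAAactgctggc
Mcm2: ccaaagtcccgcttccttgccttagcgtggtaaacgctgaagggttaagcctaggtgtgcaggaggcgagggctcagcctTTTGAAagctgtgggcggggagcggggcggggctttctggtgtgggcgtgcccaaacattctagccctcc
In Cdc20, which encodes an activator of the anaphase-promoting complex (APC/C), TTTGAA ended 13 bases before the start and CCAAT boxes ended 4 and 49 bases before it. In Ube2c, the E2 enzyme of the APC/C, TTTGAA ended 24 bases before the start and the nearest CCAAT boxes 53 and 84 bases before it. Cdk1, the kinase that drives entry into mitosis, had TTTGAA at 10 and 66 bases and also 1 E2F motif in the stretch shown. Mcm2, a subunit of the replicative helicase, had TTTGAA at 65 bases and its only CCAAT box at 171 bases, outside the stretch shown. Distances are counted from the RefSeq start. The start of the matched GENCODE transcript lay 9 bases from it for Cdc20, 31 for Ube2c, 26 for Cdk1 and 0 for Mcm2. In Cdc20, Ube2c and Cdk1 the GENCODE gene begins upstream of the RefSeq start. Motifs closer than these distances, such as CCAAT at 4 bases in Cdc20, therefore lie inside it.

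Of the 54 members, 41 were matched to a RefSeq promoter whose start lay within 500 bp of that of the deposited transcript, against 8658 active genes in all. Both strands were searched over the 250 bases before the start, and overlapping matches were counted separately. CCAAT was present in 32 of the 41 member promoters (78.0%), against 36.7% of all matched promoters of active genes. At least 2 CCAAT boxes were present in 17 (41.5%, against 13.8%). TTTGAA was present in 10 (24.4%, against 10.4%), and every one of these 10 also held CCAAT, a pair found in 3.89% of all. The E2F motif was present in 7 (17.1%, against 3.55%), and Mcm6 and Mcm5 of the replicative helicase held 3 and 2 of them. The 10 members with both CCAAT and TTTGAA had a median gene body log2 fold change of -0.30 (from -0.94 to 0.02), and the 31 matched members without the pair had -0.18 (from -0.99 to 0.51), so the ranges overlapped. Over all matched active genes the medians were -0.15 with the pair and -0.09 without it. A match is a description of the letters in this window and not evidence of a bound factor.

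In gene bodies, members ranged from 5.79 normalized reads per kb for Bub1 to 140.0 for Cdk4 (means over the 4 libraries), and their median of 27.0 was below the median of 37.1 over all active genes. The highest densities were those of Cdk4, Ccnd1 (122), Mcm7 (95.9), Ccnd2 (88.5), Ccnd3 (58.7) and Mki67 (58.7). The lowest were those of Bub1, Ncapg (7.28), Cenpe (12.2), Cenpf (13.6) and Ccne1 (13.7). Members together held 0.168% and 0.174% of the gene body reads in WT and 0.176% and 0.175% in KO. The 4 shares thus lay within 0.168% to 0.176%. A share also depends on the reads of all other genes. The summed gene body densities of members were 1866 and 2029 normalized reads per kb in WT and 1817 and 1730 in KO.

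In gene bodies, 1 of the 54 members rose in KO and 4 fell. Calls needed an adjusted p under 0.05 from limma on log2(normalized reads + 1) and a log2 fold change above 0.6 in either direction. The riser was Ccnd2, a D-type cyclin that partners CDK4 and CDK6 in G1. The members that fell were E2f2, an E2F activator of S-phase genes, Ccne2, a cyclin that activates CDK2 at the start of S phase, and the mitotic regulators Cdc20 and Ube2c. Over all active genes, 10.4% were called up and 11.4% were called down, and both of these shares are larger than those of the members.

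Small downward differences were more common than calls. Of the 54 members, 44 had a gene body log2 fold change below 0 (81.5%, against 60.2% of all active genes), and the median was -0.20, against -0.09 over all active genes. Both KO libraries lay below both WT libraries for 35 members, beside 42.8% of all active genes, and above them for 5, beside 27.6%. The median over members was -0.12 to -0.29 in each KO library set against each WT library, while between libraries of a genotype it was -0.06 (WT1 against WT2) and -0.07 (KO2 against KO1). Over all active genes the same medians were -0.02 to -0.15 between genotypes, and -0.03 and -0.09 within them. With median-of-ratios scaling, which moves all genes of a library alike, the median over members was -0.117 and that over all active genes -0.010. Without the filter on activity, the median over members stayed at -0.199, since all 54 pass the filter. The median over all 20642 genes was 0, but these include the genes below the filter, so this wider gap says nothing further about the members.

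**Figure D1:**
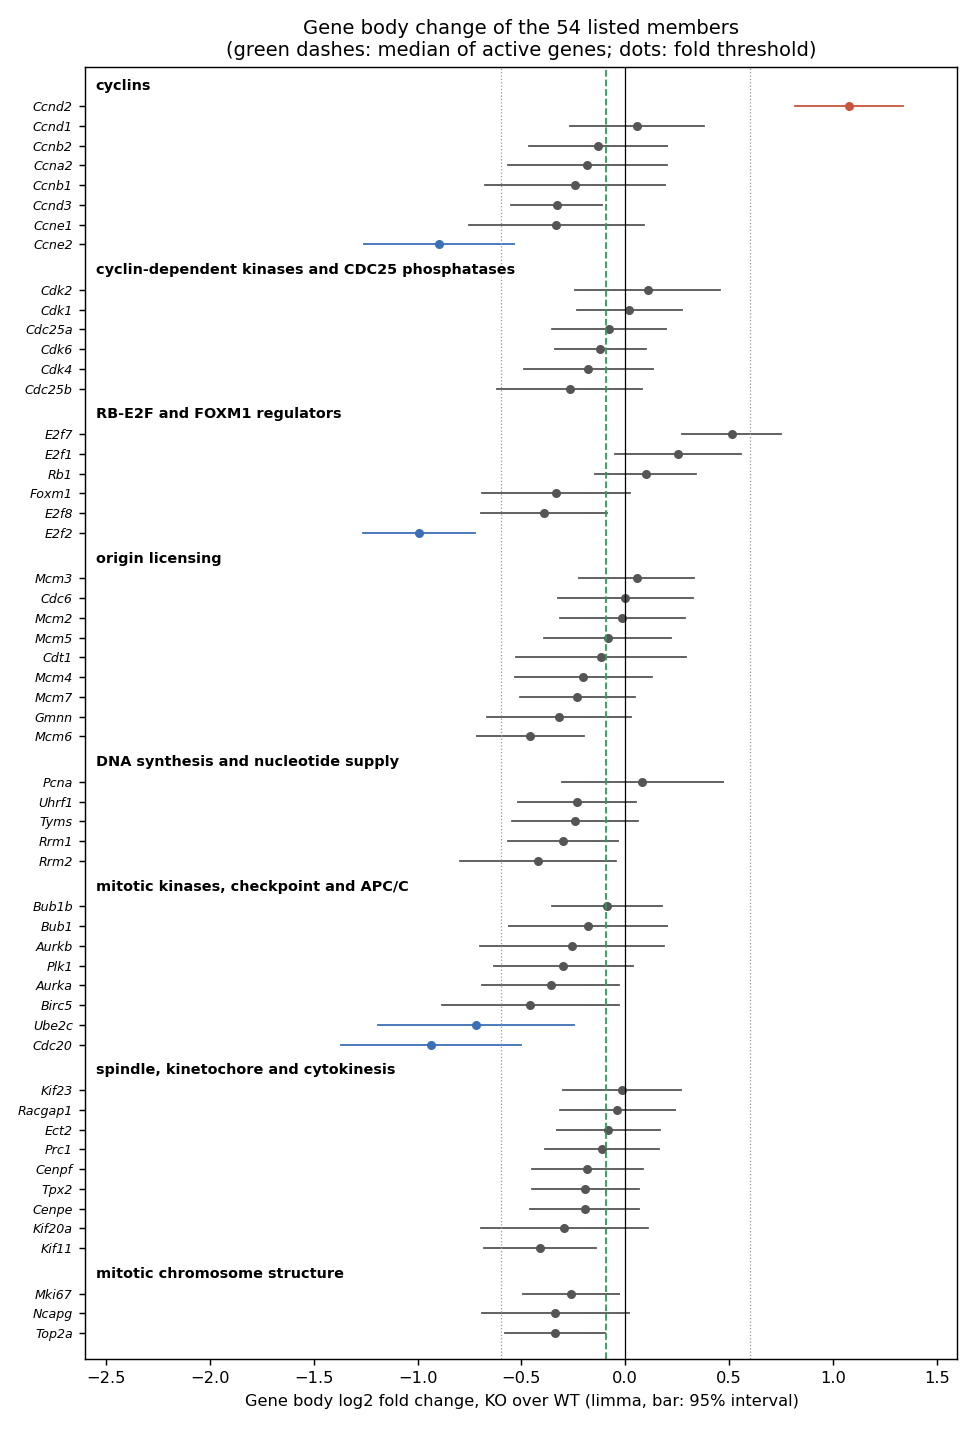
Gene body log2 fold change (KO over WT) of each of the 54 listed members, grouped by role, with its 95% interval from limma. Ccnd2 lies to the right at 1.08, E2f2, Cdc20, Ccne2 and Ube2c lie to the left between -0.99 and -0.72, and most others lie between 0 and -0.5, near the dashed median of active genes at -0.09.

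In the promoter-proximal region, a window of 50 bp placed where reads near the start site are densest, 11 members rose and 0 fell. The risers were Ccnd1, Ccnd2, Cdk4, Cdk2, Cdk1, Cdc25b, E2f7, Cdc6, Mcm2, Pcna and Rrm1. The standard error in this fit was set by read level and not by the spread of a gene's own libraries. Its p-values therefore do not measure how closely the libraries of a gene lay. Over all active genes, 25.8% were called up and 2.2% were called down, and the median log2 fold change was 0.49 over members and 0.56 over all active genes. No member had an unadjusted p under 0.05 for a fall in limma, and edgeR and DESeq2 also called 0 down. With median-of-ratios scaling within this region, which sets the median of all genes near 0, 2 members were called up and 2 down and the median over members was -0.07, so the direction for the set depends on the scaling. The count also rested on single libraries, with 2 called up without WT1, 1 without WT2, 2 without KO2 and 17 without KO1.

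Both KO libraries lay above both WT libraries in this region for 31 of the 54 members, beside 61.9% of all active genes, and below them for 1, E2f2, beside 6.72%.

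**Figure D2:**
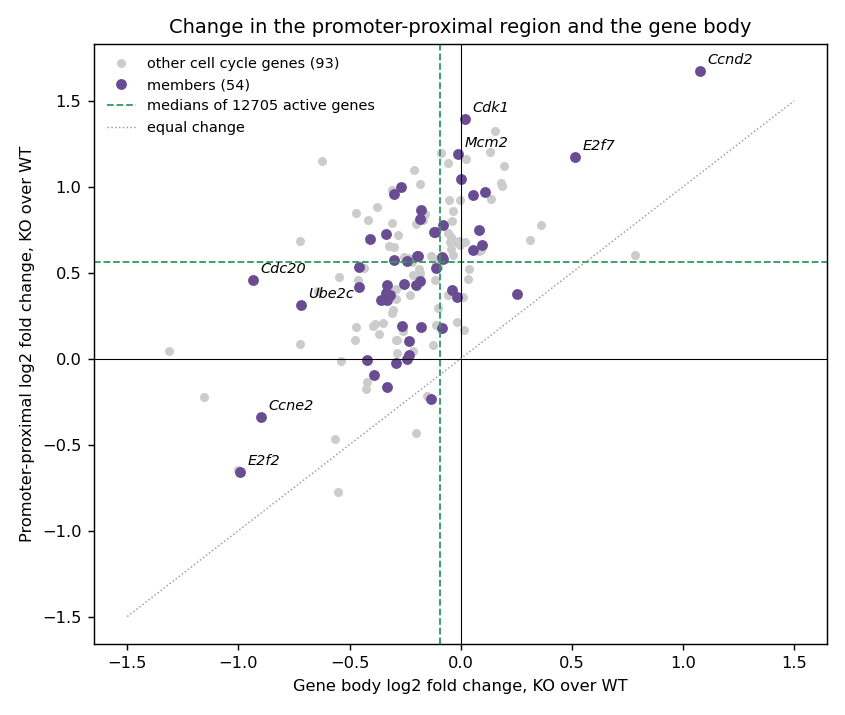
Promoter-proximal against gene body log2 fold change (KO over WT) of 54 members (purple) and 93 other cell cycle genes (grey). Nearly all points lie above the dotted line of equal change, around the dashed medians of all active genes, and Ccnd2 stands alone at the upper right.

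The pausing index, the read density of the promoter-proximal window over that of the gene body, rose for 5 members and fell for 0. They were Cdk1, Cdc25b, Mcm2, Rrm1 and Cdc20. Over all active genes, 7.96% were called up and 0.567% were called down, and the median log2 fold change was 0.68 over members and 0.61 over all active genes. All 4 libraries separated by genotype, with KO higher, for 37 members, beside 62.5% of all active genes, and with KO lower for 0, beside 3.09%. Ccnb2 was the 1 member with a value below 0, at -0.10, and 0 members had an unadjusted p under 0.05 for a fall. All genes shared one standard error in this fit, so calls depend on the size of the change alone. None of the 5 calls was made under within-region scaling, with a replicate block, or when WT1, WT2 or KO2 was left out, and 24 members were called without KO1.

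**Figure D3:**
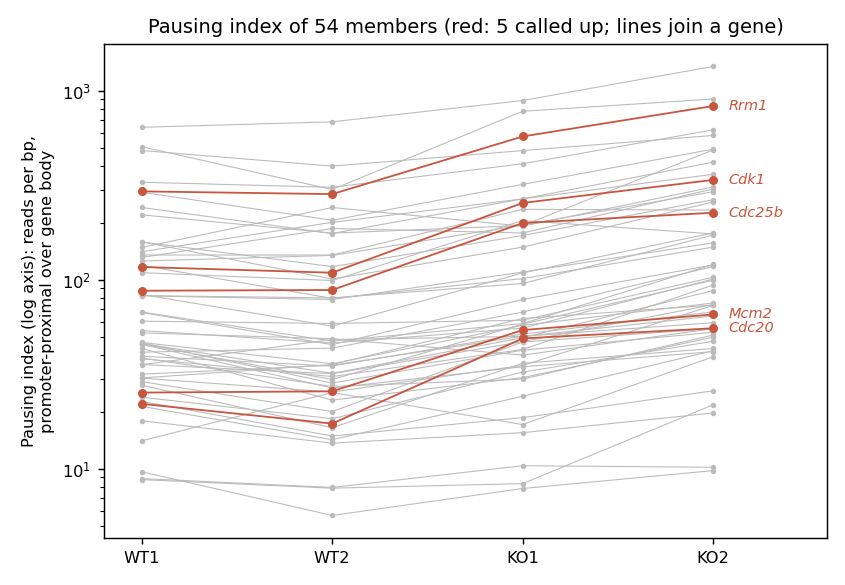
Pausing index of each of the 54 members in the 4 libraries on a log axis, with the 5 members called up in red. Cdc20 goes from 22.1 and 17.3 in WT to 48.9 and 55.4 in KO, and most members are highest in KO2, the library with the fewest reads.

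The cyclins held the member with the largest rise. Ccnd2 (chr6:127125162-127152188) had 1212 and 1572 normalized gene body reads in WT1 and WT2, and 3099 and 2739 in KO1 and KO2. Both KO libraries were well above both WT libraries, and the log2 fold change was 1.08 (standard error 0.13, 2.11-fold, limma adjusted p = 2.79e-07). Its promoter-proximal reads were 600.1 and 567 in WT and 1705 and 2031 in KO, a log2 fold change of 1.67 (standard error 0.28, limma adjusted p = 5.22e-07). Since both regions rose, the difference in its pausing index was smaller, at 0.59 (limma adjusted p = 0.279). The gene body and promoter-proximal calls of Ccnd2 were each lost in 1 of 18 alternatives, that without a filter on activity.

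The other D-type cyclins were not called in the gene body. Ccnd1 had 838 and 1349 gene body reads in WT and 1105 and 1104 in KO, so the KO libraries lay between the WT libraries (log2 fold change 0.06, limma adjusted p = 0.805). Its promoter-proximal reads were higher, 199 and 290.0 in KO against 111 and 138 in WT, with a log2 fold change of 0.95 (limma adjusted p = 0.0196). This call was lost in 8 of 18 alternatives, among them the replicate block, within-region scaling and leaving out WT1, WT2 or KO2, with values down to 0.383. Ccnd3 was lower in both KO libraries, with 6223 and 6030 reads in WT and 4993 and 4755 in KO, which is -0.33 on the log2 scale (limma adjusted p = 0.0157) and short of the fold threshold.

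E-type cyclins activate CDK2 at the passage into S phase. Ccne2 (chr4:11190433-11204779) had 267 and 251 gene body reads in WT and 142 and 135 in KO. The libraries of a genotype were close together and the genotypes far apart, with a log2 fold change of -0.90 (standard error 0.18, limma adjusted p = 0.000229). The gene overlaps Ints8 on the other strand. Its promoter-proximal reads overlapped between genotypes, at 142 and 190.0 in WT and 102 and 165 in KO. The gene body call of Ccne2 was lost in 1 of 18 alternatives, that with a fold threshold of 1. Ccne1, the cyclin of the lowest density at 13.7 normalized reads per kb, had 127 and 133 reads in WT and 106 and 100.2 in KO, a log2 fold change of -0.33 (limma adjusted p = 0.206). The mitotic cyclins Ccnb1 and Ccnb2 and the S-phase cyclin Ccna2 had gene body log2 fold changes of -0.24, -0.13 and -0.18, with limma adjusted p of 0.382, 0.545 and 0.461.

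**Figure D4:**
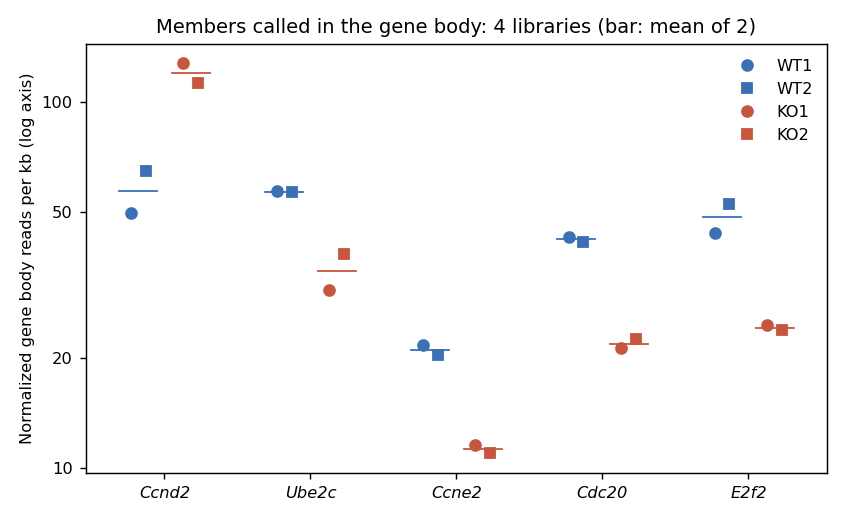
Normalized gene body reads per kb on a log axis for the 5 members called in the gene body, with circles and squares for the 2 libraries of each genotype and bars for their means. In each gene the KO points are separate from the WT points, above them for Ccnd2 and below them for Ube2c, Ccne2, Cdc20 and E2f2.

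Of the 6 kinases and CDC25 phosphatases, 4 rose at the promoter, beside 25.8% of all active genes, and all lay inside the fold threshold in the gene body. CDC25 phosphatases remove inhibitory phosphates from CDKs. Cdk1 (chr10:69335146-69352912) had 838 and 822 gene body reads in WT and 836 and 847 in KO, and the log2 fold change was 0.02 with a 95% interval of -0.23 to 0.27. Over the same gene, promoter-proximal reads were 320.1 and 293 in WT and 697 and 935 in KO. Both KO libraries were more than double either WT library there, with a log2 fold change of 1.40 (standard error 0.30, limma adjusted p = 8.99e-05). The pausing index of Cdk1 was 117 and 109 in WT and 255 and 337 in KO (log2 fold change 1.38, limma adjusted p = 0.0237). Of the 11 members called up at the promoter, Ccnd2 and Cdk1 kept the call with scaling within the region. The call of Cdk1 also held with a replicate block, and was lost without WT2 and without the filter on activity.

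Cdc25b, a phosphatase that acts at the entry into mitosis, had 102 and 109 promoter-proximal reads in WT and 215 and 208 in KO, a log2 fold change of 0.998 (limma adjusted p = 0.0159). Its gene body reads were 247 and 261 in WT against 228 and 194 in KO, at -0.27, and its pausing index rose from 87.5 and 88.2 to 199 and 226 (log2 fold change 1.27, limma adjusted p = 0.0379). Cdk2, the partner of cyclins E and A, had 179 and 175 promoter-proximal reads in WT and 380 and 319 in KO (log2 fold change 0.97, limma adjusted p = 0.0131). Cdk4, the partner of D-type cyclins, had 319 and 234 in WT and 402 and 619 in KO (log2 fold change 0.87, limma adjusted p = 0.0220). In both genes the KO libraries were above the WT libraries at the promoter, and gene body differences were 0.11 for Cdk2 and -0.18 for Cdk4. Cdk6, which had the lowest density of the group at 20.8 normalized reads per kb, had 3904 and 3753 gene body reads in WT and 3518 and 3527 in KO (log2 fold change -0.12). The calls of Cdc25b, Cdk2 and Cdk4 at the promoter were all lost under within-region scaling, with a replicate block and without WT1, WT2 or KO2.

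Among the E2F factors, E2f2 fell in the gene body, and E2f7 rose at the promoter. E2f2 (chr4:136172274-136196057) had 996 and 1195 gene body reads in WT and 556 and 541 in KO. Both KO libraries were near 0.503 of the WT level, with a log2 fold change of -0.99 (standard error 0.13, limma adjusted p = 1.58e-06). At its promoter 17 and 21 reads were counted in WT and 12 and 8 in KO, and the log2 fold change of -0.66 was not called (limma adjusted p = 0.233). The gene body call of E2f2 was lost in 2 of 18 alternatives, without the filter on activity and with a fold threshold of 1. E2f7, an atypical E2F that represses E2F target genes, had 1145 and 1265 gene body reads in WT and 1766 and 1673 in KO. Both KO libraries were higher, and its log2 fold change of 0.51 (limma adjusted p = 0.000942) was under the fold threshold. The promoter-proximal reads of E2f7 rose from 55.1 and 54 to 111 and 138, a log2 fold change of 1.17 (limma adjusted p = 0.00815). This call was lost in 6 of 18 alternatives, among them within-region scaling and leaving out WT1, WT2 or KO2, with values down to 0.607.

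E2f8, the other atypical E2F, had 534 and 472 gene body reads in WT and 352 and 416 in KO, which is -0.39 (limma adjusted p = 0.0382) and opposite in sign to E2f7. E2f1, an activator and the densest of the group, had 381 and 393 reads in WT and 423 and 504 in KO (log2 fold change 0.26, limma adjusted p = 0.176). Foxm1, the forkhead factor of G2 and mitotic genes, had 218 and 241 in WT and 181 and 182 in KO (-0.33, limma adjusted p = 0.133), and other annotated genes on its strand overlap it. Rb1, which encodes RB itself, was at 0.10 with overlapping libraries.

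Origin licensing loads the MCM helicase onto DNA in G1, with CDC6 and CDT1 as loaders and geminin (Gmnn) as inhibitor of CDT1. The 9 members of this group stayed inside the fold threshold in the gene body, from -0.46 for Mcm6 to 0.05 for Mcm3. Mcm6 was the lowest, with 1104 and 1090 reads in WT and 867 and 736 in KO (limma adjusted p = 0.00519). Among the helicase subunits, Mcm2, Mcm3 and Mcm5 had overlapping libraries and differences of -0.01, 0.05 and -0.09. Both KO libraries were below both WT libraries for Mcm4, Mcm6 and Mcm7, at -0.20, -0.46 and -0.23, beside 42.8% of all active genes. Mcm4 and Mcm7 had limma adjusted p of 0.3345 and 0.1793. Differences between subunits were not tested. Mcm7, the densest of the group, had 684 and 616 reads in WT and 575 and 531 in KO, and it shares its locus with Ap4m1 and Cops6 on the other strand.

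At the promoter, Mcm2 had 36.7 and 43 normalized reads in WT and 78.5 and 108 in KO, with a log2 fold change of 1.19 (standard error 0.37, limma adjusted p = 0.00983). Its gene body reads were 415 and 479 in WT and 415 and 471 in KO, so its pausing index rose from 25.3 and 25.7 to 54.2 and 65.5 (log2 fold change 1.20, limma adjusted p = 0.0462). Cdc6 had 27.5 and 21 promoter-proximal reads in WT and 49.9 and 51.6 in KO (log2 fold change 1.05, limma adjusted p = 0.0356), with gene body reads of 287 and 315 against 320.4 and 282 that overlapped. Both promoter calls were lost under within-region scaling and without WT1, WT2 or KO2, and that of Cdc6 also without KO1, with DESeq2 and with a replicate block.

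Of the 5 genes of DNA synthesis and nucleotide supply, 2 rose at the promoter, beside 25.8% of all active genes, and all lay inside the fold threshold in the gene body. PCNA is the sliding clamp of DNA polymerases, and Rrm1 and Rrm2 encode the subunits of ribonucleotide reductase. Pcna had 844 and 804 promoter-proximal reads in WT and 1181 and 1628 in KO (log2 fold change 0.75, limma adjusted p = 0.0328) beside gene body reads of 149 and 151 in WT and 167 and 152 in KO (log2 fold change 0.08). Rrm1 had 433 and 417 promoter-proximal reads in WT and 727 and 935 in KO (log2 fold change 0.96, limma adjusted p = 0.00851), while its gene body reads were 798.5 and 796 in WT and 687 and 610.4 in KO (-0.30, limma adjusted p = 0.0690). The pausing index of Rrm1 was 293 and 284 in WT and 572 and 829.8 in KO (log2 fold change 1.25, limma adjusted p = 0.0394). The promoter calls of Pcna and Rrm1 were lost in 8 and 7 of 18 alternatives, in both genes under within-region scaling and without WT1, WT2 or KO2, with values down to 0.179 and 0.385, and that of Pcna also with a replicate block. Rrm2, Tyms (thymidylate synthase) and Uhrf1 (which recruits the maintenance DNA methyltransferase) had gene body differences of -0.42, -0.24 and -0.23. Their limma adjusted p were 0.0709, 0.1995 and 0.1867. Both KO libraries were below both WT libraries in each, beside 42.8% of all active genes.

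All 8 members among the mitotic kinases, the spindle checkpoint and the APC/C had gene body values below 0, beside 60.2% of all active genes, with a median of -0.33. Cdc20 (chr4:118432901-118437343) had 147 and 143 gene body reads in WT and 73.2 and 77.4 in KO. The KO libraries were near 0.523 of WT, with a log2 fold change of -0.94 (standard error 0.21, limma adjusted p = 0.000961). Its promoter-proximal reads were 47.0 and 36 in WT and 52.0 and 62.3 in KO, so the pausing index rose from 22.1 and 17.3 to 48.9 and 55.4 (log2 fold change 1.39, limma adjusted p = 0.0219). The gene is short, with 128, 143, 69 and 51 reads counted in WT1, WT2, KO1 and KO2, and it overlaps Elovl1 on the other strand. Its gene body call was lost in 2 of 18 alternatives, without the filter on activity and with a fold threshold of 1.

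Ube2c (chr2:164769929-164772902) had 112 and 112 gene body reads in WT and 60.5 and 75.9 in KO, a log2 fold change of -0.72 (standard error 0.23, limma adjusted p = 0.0145). Its GENCODE entry, which runs on to 164778822, overlaps Tnnc2 on the other strand. Both KO libraries were lower, on 50 to 112 counted reads per library, and the call was lost without KO1, with DESeq2 and without the filter on activity. Birc5 (survivin), Aurka and Plk1, which act at centromeres and spindle poles, had gene body differences of -0.46, -0.36 and -0.30 with limma adjusted p of 0.0828, 0.0785 and 0.150. Bub1, the checkpoint kinase at the low end of the densities, had 204 and 173 reads in WT and 176 and 156 in KO, which overlapped.

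The 9 listed genes of the spindle, kinetochore and cytokinesis were all below 0 in the gene body, beside 60.2% of all active genes, and inside the fold threshold, with a median of -0.18. Kif11, the motor that separates spindle poles, was the lowest, with 745 and 809 reads in WT and 612 and 557 in KO (-0.41, limma adjusted p = 0.0147). Prc1, which bundles microtubules of the central spindle, was the densest of the group and had 569 and 592 reads in WT and 518 and 557 in KO (-0.11, limma adjusted p = 0.541). Cenpe, a kinetochore motor, was the least dense and had 804 and 755 in WT and 675 and 686 in KO (-0.20, limma adjusted p = 0.233). Racgap1, Ect2 and Kif23, which act together in cytokinesis, had -0.04, -0.08 and -0.02.

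Chromosome structure genes lay between -0.34 and -0.26. Both KO libraries were below both WT libraries for all 3, beside 42.8% of all active genes. Mki67, the gene of the proliferation marker Ki-67, had 1620.0 and 1655 gene body reads in WT and 1364 and 1366 in KO (-0.26, limma adjusted p = 0.0688). Top2a, the topoisomerase of dividing cells, had 1275 and 1252 in WT and 999 and 1001 in KO (-0.34, limma adjusted p = 0.0245). Ncapg, a condensin subunit, had 256 and 226 in WT and 188 and 193 in KO (-0.34, limma adjusted p = 0.126). Ccnd3, E2f8, Mcm6, Kif11 and Top2a were named for passing an adjusted p of 0.05 below the fold threshold, after their values were seen.

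Another 96 cell cycle genes that are not members were listed for comparison, and 93 of them were active. Their gene body median was -0.19, with 76 of 93 below 0 (81.7%, against 60.2% of all active genes), and 5 were called down and 0 up, beside 11.4% and 10.4% of all active genes (3 had an unadjusted p under 0.05 for a rise in limma, and edgeR and DESeq2 called 0 up). At the promoter 16 were called up, beside 25.8% of all active genes, and for the pausing index 11, beside 7.96%. The inactive ones were the CDK inhibitors Cdkn2a and Cdkn2b, which had low gene body density, and Lig1 (DNA ligase 1), whose promoter-proximal value is listed at 0.

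The largest of these falls was that of Spc25, a kinetochore subunit, with 356 and 348 gene body reads in WT and 154 and 129 in KO (log2 fold change -1.31, limma adjusted p = 1.39e-06). Its promoter-proximal reads were level, 1051 and 940.0 in WT and 860.3 and 1219 in KO. Tfdp2, a DP partner of E2F factors, had 4121 and 3468 in WT and 2078 and 1719 in KO (log2 fold change -0.9999, limma adjusted p = 4.53e-07). Ccnf, the F-box protein cyclin F, had 1247 and 1411 in WT and 783 and 824 in KO (-0.72, limma adjusted p = 3.93e-05). In each of these genes both KO libraries were below both WT libraries.

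Of the CDK inhibitors, Cdkn1a (p21) was lower and the others were not called in the gene body. Cdkn1a had 2238 and 2438 gene body reads in WT and 1261 and 1825 in KO (-0.62, limma adjusted p = 0.000756), and this call was lost under the other scalings and without WT2 or KO1. Its promoter-proximal window held 1 to 4 reads per library, so its promoter-proximal and pausing values carry little. Cdkn1b (p27) had 318 and 371 promoter-proximal reads in WT and 711 and 598 in KO (log2 fold change 0.92, limma adjusted p = 0.0126) beside 307 and 289 gene body reads in WT and 333 and 266 in KO, which overlapped. Cdkn1c (p57) had 20.7 and 32 gene body reads in WT and 37.1 and 54.7 in KO (log2 fold change 0.79, limma adjusted p = 0.0669). Cdkn2c (p18) had 72.3 and 49 gene body reads in WT and 60.5 and 42.5 in KO, a log2 fold change of -0.23. Cdkn2d (p19) had 34.4 and 37 in WT and 49.9 and 24.3 in KO, at -0.03, and the libraries of both genes overlapped.

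Markers of several liver cell types also differed between genotypes. The counts below stand beside 10.4% of all active genes called up in gene bodies and 11.4% called down. In gene bodies, 4 of 5 active erythroid markers fell, with a median of -1.40 and summed densities of 114 and 127 normalized reads per kb in WT against 45.6 and 42.5 in KO. The marker not called was the beta-globin gene Hbb-b1, with only 5 and 4 gene body reads counted in WT and 2 and 0 in KO. The globin genes Hba-a1, Hba-a2 and Hbb-b2 were not found under these symbols. These few reads are therefore not taken as the level of globin transcription. E2f2 fell beside this list, and its part in the result was not tested. Of 7 active hepatocyte markers, 4 fell (median -0.89). All 8 stellate cell markers rose (median 1.30), with summed densities of 111 and 135 in WT and 331 and 310.0 in KO. Of 8 endothelial markers, 5 rose (median 0.68), with sums of 956 and 1017 in WT and 1667 and 1544 in KO, and none of these markers was at 0 in any library. Ccnd2 rose beside both lists, and their part in its rise was not tested. The 8 active Kupffer cell and leukocyte markers had a median of 0.25 (4 with an unadjusted limma p under 0.05, 0 called). Of 3 active cholangiocyte markers, 1 fell (median 0.44).

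**Figure D5:**
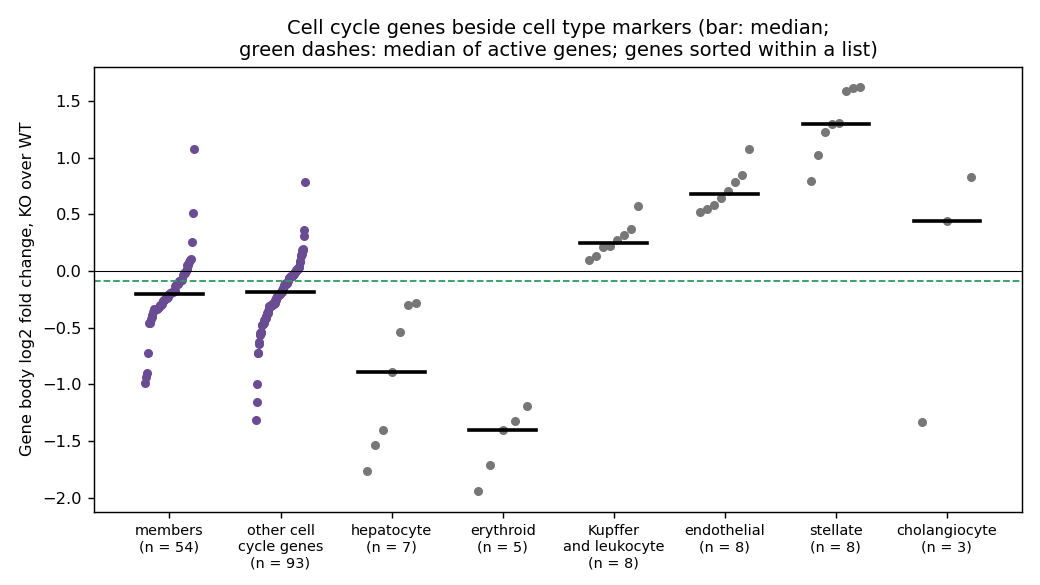
Gene body log2 fold change (KO over WT) of members, other cell cycle genes and 6 lists of cell type markers, with each active gene as a point and the median of each list as a bar. The medians of both cell cycle lists (-0.20 and -0.19) lie near the dashed median of active genes, between those of the erythroid (-1.40) and stellate (1.30) markers.

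The deposited list of intergenic enhancers, called on reads pooled over the 4 libraries and therefore without a comparison of genotypes, names members as linked genes. A member was the closest gene of at least 1 enhancer in 9 of 54 cases (16.7%, against 10.9% of active genes), and 5 lay within 50 kb of one (9.26%, against 9.83%). A contact recorded in the 4DGenome database linked 47 of 54 (87.0%, against 75.8%). According to the paper, many of the contacts in that database come from tissues or conditions other than liver. Ccnd1 was the closest gene of 4 enhancers, which lay 90534 to 170040 bp from it, and Ccnd2 of 1, at 114295 bp. Cdk1 was the closest gene of an enhancer at 58030 bp, E2f7 of 1 at 36727 bp, E2f8 of 1 at 35434 bp and Rrm2 of 1 at 16597 bp. E2f2 had an enhancer within 50 kb without being the closest gene. Cdk6, Ect2 and Kif23 were the closest genes at 132800 bp or more.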

How the data were processed

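PRO-seq was measured in 2 WT and 2 Hdac3 KO liver libraries, grouped by their labels. The authors trimmed reads with cutadapt, aligned them to mm10 with Bowtie2 and counted them with NRSA over 20820 RefSeq transcripts, promoter-proximal windows along the coding strand. Whether gene bodies were counted by strand is not given in the sources used here, and 14 members overlap a gene on the other strand. For WT2 the deposited values are counts (scaling factor 1). For the other libraries the deposited values are a signal, in which the authors scaled the counts of a library by its own factor (1.06 to 1.52), and densities give this signal per base pair. Undoing the scaling gave whole reads for 100% of values (tolerance 0.01). On these reads edgeR called 1329 genes up and 1454 down in gene bodies, and 3251 up and 265 down in promoter-proximal regions.

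log2(normalized reads + 1) of 12705 active genes was compared with limma 3.58.1 (trend for gene body and promoter-proximal reads, no trend for the pausing index) in R 4.3.3, with Benjamini-Hochberg adjustment. Fold changes on this scale understate the change of low values. Alternatives used edgeR 4.0.16, DESeq2 1.42.0, pseudocounts of 0.1 and 10, other filters, scalings and thresholds, fits with a replicate block, and fits that left out 1 library. Positions are from RefSeq (GRCm38.p6), overlaps from GENCODE M21. Promoters and plots used Python 3.11.15, pandas 2.3.3, numpy 2.4.6 and matplotlib 3.10.9.

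The members, the other lists and the marker lists were chosen with earlier results of these data known. Named with values in every library were members called in any measure, the densest and least dense member of each role group, the other cell cycle genes called in the gene body (1 of these is not reported here) and the active CDK inhibitors.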

Additional observations from a re-analysis of the deposited data

How the results depend on the processing

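With 2 pools per genotype, the limma p-values rest on a spread between pools that is shared over genes. In gene bodies a gene's own spread entered in part. In the promoter-proximal fit the spread was set by read level alone, and in the pausing index fit it was the same for all genes. The p-values of these last fits therefore do not measure how closely the pools of a gene lay. Short genes such as Ube2c and Cdc20 rest on about 50 to 143 gene body reads per library. The gene body calls of members, 1 up and 4 down, were 0 and 1 without a filter on activity, 2 and 9 with no fold threshold, and 0 down with a fold threshold of 1. Leaving out single libraries gave 1 up and 3 to 4 down. For the promoter-proximal region, 11 up and 0 down became 0 up without the filter, 2 up and 2 down with median-of-ratios or TMM scaling within the region (median -0.07 and -0.071, reversed), 5 up with a fold threshold of 1, 5 up with a replicate block, and 1 to 17 up with single libraries left out. For the pausing index, 5 up became 0 with a pseudocount of 0.1, without the filter, with either within-region scaling and with a replicate block, 14 with a pseudocount of 10, 0 to 24 with single libraries left out, and 6 with a trend of the spread, chosen after seeing the data (12.4% of all active genes).

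For the other cell cycle genes, the gene body calls of 0 up and 5 down were 2 down without the filter, 1 up and 17 down with no fold threshold, and 2 down with a fold threshold of 1. Leaving out single libraries gave 0 to 1 up and 5 to 7 down. Their 16 promoter-proximal calls up became 0 without the filter, 0 up and 3 down with within-region scalings, 10 with a fold threshold of 1, 8 with a replicate block, and 0 to 18 with single libraries left out. Their 11 pausing index calls up became 1 with a pseudocount of 0.1, 27 with one of 10, 0 without the filter and with within-region scalings, 1 with a replicate block, and 0 to 39 with single libraries left out.

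The labels share replicate numbers, but deviations of same-numbered libraries did not move together (correlation of WT1 and KO1 deviations 0.019 in gene bodies and -0.105 in promoter-proximal regions), so the numbers were not taken to pair the libraries. The replicate block left the gene body calls of members at 1 up and 4 down. Crossed pairing, added after seeing the data, gave 15 up for promoter-proximal reads and 19 up for the pausing index of members, and 29 up and 1 down, and 31 up, for the other cell cycle genes. The cause of these shifts was not tested.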
